A study of Mus musculus with 114 samples.

Results

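Acyl-CoA synthetases attach coenzyme A to a fatty acid, and here 9 of their genes were followed in mouse adipocytes on 2 diets. They were Acss1, Acss2 and Acss3 of the short chain family, Acsm3 and Acsm5 of the medium chain family, and Acsl1, Acsl3, Acsl4 and Acsl5 of the long chain family. The 9 genes were picked by symbol from the 29132 genes of the expression table, with their levels in all 38 mice known. Their levels and differences below are therefore a description and carry no p-value.

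Male C57BL/6J mice were 6 weeks old when they were put on a chow diet (CD) or on a high fat diet (HFD), and were killed after 8, 20 or 34 weeks. Perigonadal fat was digested with collagenase, and polyadenylated RNA of the floating adipocyte fraction was sequenced. Each group held 6 mice, except CD at 34 weeks with 8 mice, and each mouse had 3 technical replicates that were merged into 1 value. The HFD was D12492 and the CD was 1 of 2 control formulas, D12450B or D12450K. Which CD mice ate which formula is not given in the sources used here, so formula and time in CD cannot be told apart. No engineered genetic alteration is named for any mouse, and food was taken away 6 hours before collection. Levels are CPM, the reads of a gene per 1000000 reads counted over all genes in that mouse. Depth ranged from 9275711 to 15480388 reads per mouse, so that 1 read was worth 0.0646 to 0.108 CPM, and at 8 weeks every HFD library was deeper than every CD library. The 9 genes all passed the low-level filter, a mean log2(CPM + 1) above 2.0 over all mice, along with 10343 genes in total. The fewest reads for a member in any mouse were 5, for Acsm3, while Acsl1 had at least 14003.

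A fatty acid must be joined to coenzyme A before a cell can store, elongate, oxidise or attach it to other molecules. Short chain enzymes act on acetate and propionate, medium chain enzymes are found in mitochondria, and long chain enzymes serve the fatty acids that adipocytes take up, make and release. In white fat, ACSL1 is the leading long chain enzyme, and ACSS2 makes cytosolic acetyl-CoA for fatty acid synthesis.

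The adipocyte label was checked against 11 markers, all of which passed the low-level filter. Adipoq, the adiponectin gene, had a mean of 5491 CPM in CD and 5017 CPM in HFD at 8 weeks. Its means were 5861 and 3491 CPM at 20 weeks and 4894 and 3482 CPM at 34 weeks, lower on HFD at both times (limma, adjusted p = 0.000709 and 0.00729). The floating fraction was not free of other cells. The summed level of 11 macrophage genes ran from 451 to 1747 CPM in CD and from 1146 to 3148 CPM in HFD at 8 weeks. At 20 weeks it ran from 1067 to 3440 CPM in CD and from 4464 to 9076 CPM in HFD, and at 34 weeks from 1214 to 12721 CPM and from 5148 to 15474 CPM. None of the 11 was at 0 in all mice of a group, whereas the T cell and B cell lists held no gene past the filter. Several other lists leaned the same way, but not all. At 8, 20 and 34 weeks 6, 7 and 9 of the 11 macrophage genes were higher on HFD, and 0, 1 and 0 were lower. Of all genes tested, 29.8%, 38.3% and 27.5% were higher and 15.1%, 18.7% and 15.7% were lower at these times. Of 7 genes of lipid-associated macrophages 7, 7 and 6 were higher, of 6 endothelial genes 6, 5 and 6, and of 5 tested genes of progenitors and fibroblasts 3, 5 and 3, with none lower. Of the mesothelial genes, Msln and Upk3b were higher at 8 weeks only. Alb, the hepatocyte gene tested, was lower on HFD at 20 and 34 weeks, at -2.56 and -2.14 on the log2 scale (limma, adjusted p = 2.76e-07 and 1.26e-05). The 11 adipocyte markers did not move together (calls by limma, adjusted p under 0.05). On HFD at 8 weeks Pnpla2 (-0.63) and Cfd (-2.76) were lower and Lep (2.18) was higher, and the others did not pass. At 20 weeks Lep was again higher (2.90), Cidea, Pparg and Fabp4 did not pass, and the others were lower. At 34 weeks 9 were lower, with Cfd (-2.70) and Retn (-2.11) the furthest, and 1, Cidea, was higher. The part of these markers in the differences below was not tested, and in a bulk sample fewer cells of a type cannot be told apart from less RNA per cell.

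The members lie on 7 chromosomes of the mouse genome (GRCm38, GENCODE vM21 gene models). Acsm5 (chr7:119519463-119545551) and Acsm3 (chr7:119760923-119787513) are on the plus strand of chromosome 7, 215.372 kb apart. Acsm1, Acsm2 and Acsm4 lie between them and had no read in any CD or HFD mouse at 8 or 20 weeks. Acss1 (chr2:150618105-150668500, minus strand) and Acss2 (chr2:155517948-155585724, plus strand) share chromosome 2, and Acss3 is at chr10:106933517-107123668 on the minus strand. The long chain genes are Acsl1 (chr8:46471037-46536051, plus), Acsl3 (chr1:78657825-78707743, plus), Acsl4 (chrX:142317993-142390535, minus) and Acsl5 (chr19:55251938-55297720, plus). Of the exon bases of Acsm3, 39.7% also belong to exons of Eri2 on the opposite strand, and for Acss3 the share is 33.9% with Ppfia2. The strand setting of the counting is not given in the sources used here, so reads in those stretches could have been assigned to neither gene or to the partner. For the other members the shared exon bases made up at most 9.91%.

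The promoters of the members that differed most between diets are shown first. The 250 bases before each RefSeq start (build GRCm38.p6) were matched by symbol for 8 of the 9 genes, all but Acss3, and were searched on both strands for 5 motifs. These were the GC box GGGCGG, the E-box CACGTG, the C/EBP motif TTGCNNAA and the SREBP motif TCACNCCAC, together with the direct repeat bound by PPAR and RXR. Bases inside an annotated exon are left out of the lines below, capitals mark a motif, and each line reads 5′ to 3′ on the plus strand. The coordinates are chr7:119760673-119760922 for Acsm3, chr7:119526015-119526207 for Acsm5 and chr2:155517793-155517947 for Acss2.
Acsm3: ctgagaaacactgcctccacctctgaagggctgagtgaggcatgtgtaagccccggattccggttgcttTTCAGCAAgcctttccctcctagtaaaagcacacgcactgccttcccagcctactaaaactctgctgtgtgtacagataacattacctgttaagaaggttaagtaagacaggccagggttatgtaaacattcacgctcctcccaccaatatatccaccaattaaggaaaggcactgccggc
Acsm5: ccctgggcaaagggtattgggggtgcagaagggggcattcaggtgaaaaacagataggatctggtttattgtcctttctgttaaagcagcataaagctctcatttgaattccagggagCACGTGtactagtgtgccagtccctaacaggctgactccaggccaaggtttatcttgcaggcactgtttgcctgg
Acss2: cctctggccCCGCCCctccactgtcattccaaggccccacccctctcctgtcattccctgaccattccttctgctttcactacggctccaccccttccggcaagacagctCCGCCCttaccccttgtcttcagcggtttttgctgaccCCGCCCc
The Acsm3 stretch holds 1 C/EBP motif, on the minus strand, and the Acsm5 stretch holds 1 E-box. The Acss2 stretch holds 3 GC boxes, all on the minus strand. Over 32851 mouse promoters of the full 250 bases, with exon bases kept, the GC box occurred in 32.7% and the C/EBP motif in 9.56%. The E-box occurred in 6.02%, the SREBP motif in 1.05% and the PPAR and RXR repeat in 0.0335%. The Acsm5 and Acss2 lines above are shorter than these windows. The RefSeq starts used for Acsm5 and Acsl5 lie inside their gene models, which begin at chr7:119519463 and chr19:55251938. The bases before those model starts were not searched. The GC box was also found in Acss1, Acsl3, Acsl4 and the upstream of the 2 Acsl1 starts, and was not found in Acsm3, Acsm5 or Acsl5. The only SREBP motif was at the downstream Acsl1 start, and the PPAR and RXR repeat was in none of the windows.

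Per kilobase of exons, an adjustment for gene length, Acsl1 stood far above the other members in all 6 groups. The length of a gene is the union of all its annotated exons, 10.163 kb for Acss2 and 3.799 kb for Acsm5. A single transcript can be shorter, so the order and the family shares below depend on these lengths. In CD at 8 weeks the level of Acsl1 was 311 ± 64.7 CPM per kb (SD, n = 6), against 26.4 ± 2.73 for Acss3, the next gene in order. Acsl4 at 21.0 ± 9.63, Acsm3 at 19.6 ± 6.43 and Acsl5 at 14.3 ± 1.54 CPM per kb followed. The SD ranges of each pair of neighbours from Acss3 to Acsl5 overlapped. Lower in the order were Acsm5 at 8.48 ± 1.22, Acss2 at 7.89 ± 1.31, Acsl3 at 5.71 ± 1.77 and Acss1 at 2.97 ± 0.479 CPM per kb. The SD ranges of Acsm5 and Acss2 overlapped, as did those of Acss2 and Acsl3.

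The order was different after 34 weeks of HFD. Acsl5 had moved to the place after Acsl1, at 27.9 ± 2.59 against 202 ± 53.0 CPM per kb (SD, n = 6). Acsl4, Acss2, Acss1, Acss3 and Acsl3 lay between 9.43 and 6.07 CPM per kb, and the SD ranges of each pair of neighbours among them overlapped. Acsm5 at 3.05 ± 1.04 and Acsm3 at 0.563 ± 0.480 CPM per kb came last. In CD at 34 weeks, by contrast, the place after Acsl1 was held by Acss2, at 47.5 ± 42.5 CPM per kb (SD, n = 8), a spread nearly as wide as its mean.

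**Figure D1:**
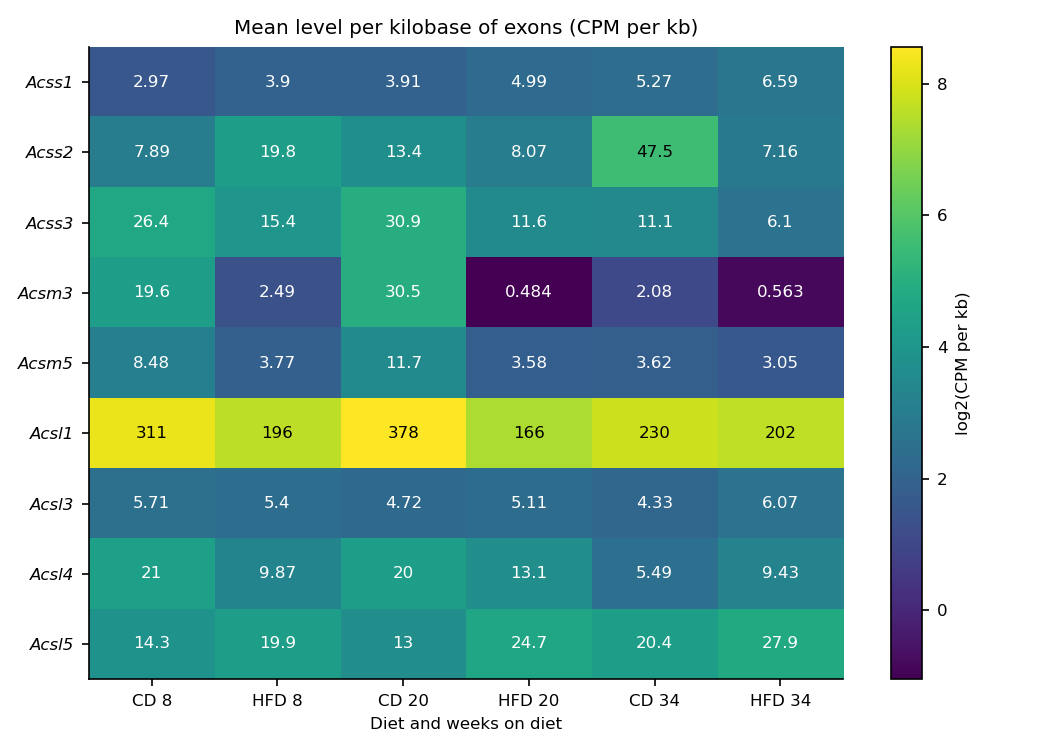
Mean level of each member in each diet and time group, in CPM per kilobase of exons, as numbers and as colour on a log2 scale. Acsl1 is the highest in every column, Acsm3 drops to 0.484 in HFD at 20 weeks, and Acss2 reaches 47.5 in CD at 34 weeks.

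As a share of the summed CPM per kb of the 9 genes, the long chain family held 84.0% ± 2.89 in CD and 83.5% ± 2.37 in HFD at 8 weeks (SD, n = 6). The medium chain family held 6.81% ± 1.64 in CD and 2.36% ± 1.96 in HFD at 8 weeks, and 7.92% ± 3.16 against 1.68% ± 0.748 at 20 weeks. At 34 weeks it held 1.72% ± 0.294 in CD (n = 8) and 1.36% ± 0.269 in HFD (n = 6). The medium chain share was thus small in HFD at all 3 times and small in CD only at 34 weeks. The short chain share was 14.1% ± 1.60 in HFD against 9.16% ± 1.69 in CD at 8 weeks, and 7.53% ± 1.22 in HFD against 18.3% ± 7.87 in CD at 34 weeks, so that its order between diets turned round. The summed short chain level at 8 weeks was 37.3 ± 2.18 CPM per kb in CD and 39.1 ± 4.81 in HFD, while the long chain sum was 352 ± 66.8 and 231 ± 20.0. At 34 weeks the short chain sum was 63.9 ± 43.1 CPM per kb in CD and 19.8 ± 3.02 in HFD.

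**Figure D2:**
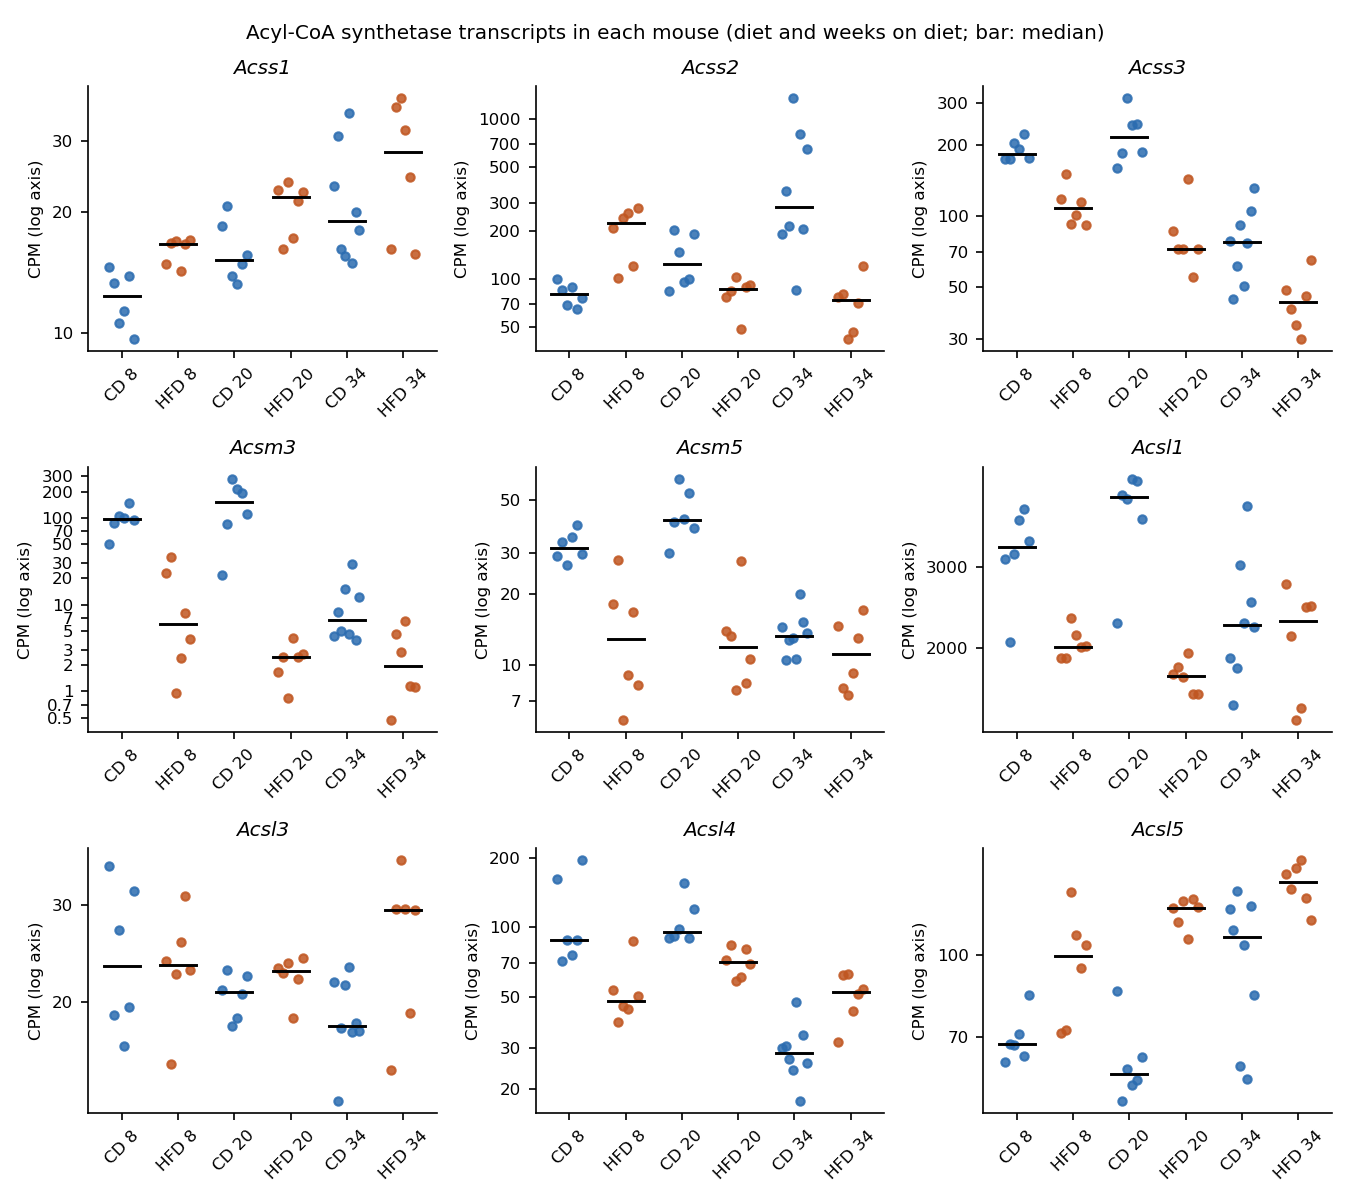
CPM of the 9 members in each mouse on log axes, by diet and weeks on diet, with CD in blue, HFD in orange and the group median as a bar. Acsm3 in CD falls from a median of 151 at 20 weeks to 6.59 at 34 weeks, Acss2 in CD at 34 weeks spreads from 85.0 to 1357, and Acsl5 on HFD climbs to a median of 137.

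Acss2 encodes the cytosolic and nuclear enzyme that turns acetate into acetyl-CoA, and its diet difference pointed in opposite directions at the early and the late time. At 8 weeks Acss2 ran from 64.4 CPM through a median of 80.4 to 99.5 in CD, and from 101 through 224 to 278 in HFD. The highest CD mouse was below the lowest HFD mouse, and the log2 difference was 1.23 ± 0.41 (SE), past the threshold of adjusted p under 0.05 in limma. At 20 weeks CD mice ran from 83.8 through 124 to 201 CPM and HFD mice from 48.7 through 85.9 to 103 CPM. The groups overlapped, and the difference of -0.68 ± 0.41 was not past the threshold, though it passed with only the 20-week mice in the fit (-0.68) or with array weights (-0.66). At 34 weeks CD mice ran from 85.0 through 283 to 1357 CPM and HFD mice from 41.8 through 74.0 to 119.5 CPM. Mice 4, 6 and 8 of the CD group stood highest, at 1357, 808 and 649 CPM, and mouse 5 lay inside the HFD range. The log2 difference was -2.30 ± 0.39, past the threshold.

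Acss1 encodes the mitochondrial counterpart. At 8 weeks Acss1 ran from 9.67 through 12.4 to 14.6 CPM in CD and from 14.3 through 16.7 to 17.1 CPM in HFD, and at 20 weeks from 13.3 through 15.2 to 20.6 CPM and from 16.2 through 21.8 to 23.8 CPM. At 34 weeks CD mice ran from 15.0 through 19.0 to 35.2 CPM and HFD mice from 15.7 through 28.2 to 38.3 CPM. The diets overlapped at all 3 times. The log2 differences of 0.38 ± 0.19, 0.34 ± 0.19 and 0.29 ± 0.18 were not past the threshold, although without HFD mouse 6 the last was 0.42 and passed it. Acss1 also passed at 8 and 20 weeks with only the groups compared (0.38 and 0.34) or with array weights (0.34 and 0.40), and at 20 and 34 weeks when centred on adipocyte markers (0.94 and 0.99).

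Acss3 encodes a mitochondrial enzyme with a preference for propionate, and it was lower on HFD at each time. At 8 weeks Acss3 ran from 174 through 183 to 222 CPM in CD and from 91.0 through 108 to 150 CPM in HFD, and at 20 weeks from 160 through 215 to 316 CPM and from 54.8 through 72.3 to 143 CPM. The diets did not overlap at either of these times, and the log2 differences were -0.79 ± 0.22 and -1.43 ± 0.22. At 34 weeks Acss3 ran from 44.5 through 77.6 to 131 CPM in CD and from 29.9 through 42.9 to 64.8 CPM in HFD. Here the groups overlapped, with a difference of -0.81 ± 0.20 that passed the threshold. When each mouse was centred on its adipocyte markers, whose mean was itself lower on HFD, the difference at 34 weeks was -0.11 and no longer passed.

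Acsm3, a mitochondrial enzyme of the medium chain family, had the widest range of the 9 genes as a ratio of its highest to its lowest level. At 8 weeks Acsm3 ran from 50.2 through 96.1 to 149 CPM in CD and from 0.969 through 6.01 to 35.2 CPM in HFD. At 20 weeks it ran from 22.2 through 151 to 278 CPM in CD and from 0.836 through 2.51 to 4.11 CPM in HFD. The diets did not overlap at either time, and the log2 differences were -3.54 ± 0.58 and -5.18 ± 0.58. HFD mice were spread at 8 weeks, where mice 1 and 2 held 23.2 and 35.2 CPM and the other 4 at most 8.0 CPM, and were close together at 20 weeks. At 34 weeks CD mice ran from 3.90 through 6.59 to 29.1 CPM and HFD mice from 0.467 through 1.98 to 6.56 CPM. CD mice thus lay below every CD mouse of 8 weeks, and the diets overlapped. The difference of -1.52 ± 0.54 passed the threshold, but not with a pseudocount of 4 (-0.96), centred on adipocyte markers (-0.82), without CD mouse 6 (-1.28) or without HFD mouse 1 (-1.30).

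Acsm5, a related mitochondrial enzyme, showed the same order at a lower contrast. At 8 weeks Acsm5 ran from 26.6 through 31.5 to 39.4 CPM in CD and from 5.81 through 12.9 to 28.0 CPM in HFD, where 1 HFD mouse lay inside the CD range. At 20 weeks it ran from 29.9 through 41.2 to 61.7 CPM in CD and from 7.83 through 11.9 to 27.5 CPM in HFD, without overlap. The log2 differences were -1.28 ± 0.27 and -1.72 ± 0.27. At 34 weeks the groups were alike in range, from 10.5 through 13.3 to 20.1 CPM in CD and from 7.45 through 11.1 to 17.2 CPM in HFD. The difference of -0.27 ± 0.25 was not past the threshold, and it was 0.43 and past it when centred on adipocyte markers.

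Acsl1, the main long chain enzyme of fat cells, was the most abundant member in every mouse. At 8 weeks Acsl1 ran from 2059 through 3299 to 3995 CPM in CD and from 1903 through 2018 to 2323 CPM in HFD. CD mouse 2, at 2059 CPM, was the only CD mouse inside the HFD range, and the log2 difference was -0.64 ± 0.20. At 20 weeks CD mice ran from 2263 through 4239 to 4631 CPM and HFD mice from 1591 through 1748 to 1949 CPM, a difference of -1.15 ± 0.20 without overlap. At 34 weeks the ranges were 1510 through 2246 to 4054 CPM in CD and 1400 through 2292 to 2753 CPM in HFD. The medians were nearly equal, and the difference of -0.17 ± 0.18 was not past the threshold. Centred on adipocyte markers, the differences were -0.36 at 8 weeks, no longer past the threshold, and 0.52 at 34 weeks, now past it and of the opposite sign.

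Acsl4 prefers arachidonic acid and other polyunsaturated acids, and it was lower on HFD at the earlier times, at 20 weeks only without centring on adipocyte markers, and higher at the last. At 8 weeks Acsl4 ran from 71.8 through 88.0 to 196 CPM in CD and from 39.0 through 48.2 to 87.1 CPM in HFD, and at 20 weeks from 89.6 through 95.2 to 156 CPM and from 58.7 through 70.7 to 83.9 CPM. A single HFD mouse lay inside the CD range at 8 weeks and none at 20 weeks, and the log2 differences were -1.01 ± 0.22 and -0.58 ± 0.22. At 34 weeks Acsl4 ran from 17.7 through 28.6 to 47.7 CPM in CD and from 32.0 through 52.8 to 62.9 CPM in HFD, a difference of 0.77 ± 0.21. Every CD mouse of 34 weeks lay below every CD mouse of 8 weeks, while on HFD the log2 difference between these times was -0.05 ± 0.22. Centred on adipocyte markers, the difference was -0.73 at 8 weeks and 0.02 at 20 weeks, neither past the threshold. The 20-week difference also lost the threshold without CD mouse 4 (-0.47), CD mouse 6 (-0.54), HFD mouse 3 (-0.53) or HFD mouse 4 (-0.54).

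Acsl5, an enzyme of mitochondria and endoplasmic reticulum, was the only member to pass the threshold upwards on HFD at all 3 times. At 8 weeks Acsl5 ran from 62.8 through 67.9 to 83.8 CPM in CD and from 71.1 through 99.3 to 131 CPM in HFD. The log2 difference was 0.44 ± 0.16, past the threshold, and it fell short with TMM scaling (0.33) and without HFD mouse 3 (0.35), 4 (0.40) or 6 (0.42). At 20 weeks CD mice ran from 53.1 through 59.6 to 85.5 CPM and HFD mice from 107 through 122 to 127 CPM, a difference of 0.93 ± 0.16 without overlap. At 34 weeks CD mice ran from 58.5 through 108 to 131 CPM and HFD mice from 116 through 137 to 150 CPM, with overlap and a difference of 0.49 ± 0.15. This one fell short with only the 34-week mice in the fit (0.49) and with array weights (0.31). Most of the 11 macrophage genes were also higher on HFD, 6, 7 and 9 of them at the 3 times, with Cd68 at group means of 36.2 and 119.6 CPM at 8 weeks, 75.1 and 604.9 CPM at 20 weeks and 307 and 969.8 CPM at 34 weeks in CD and HFD. Cd163 was the 1 macrophage gene that was lower, at 20 weeks (-1.35). Their part in the Acsl5 difference was not tested.

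Acsl3, which is tied to lipid droplet formation, kept the narrowest range as a ratio of its highest to its lowest level. Over all 38 mice Acsl3 lay between 13.2 and 36.3 CPM, and group medians lay between 18.1 CPM in CD and 29.4 CPM in HFD, both at 34 weeks. The log2 differences were -0.05 ± 0.17, 0.11 ± 0.17 and 0.43 ± 0.16, of which the last passed the threshold. The last was 0.34 and short of the threshold with TMM or median-of-ratios scaling, 0.18 with array weights and 0.41 with the mouse number as a replicate block, and was not past it either without a low-level filter or with only the 34-week mice in the fit (0.43 each). It was 0.33 without HFD mouse 3, 0.36 without CD mouse 2, 0.39 without HFD mouse 2, 4 or 6 and 0.42 without CD mouse 6, again short of the threshold.

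**Figure D3:**
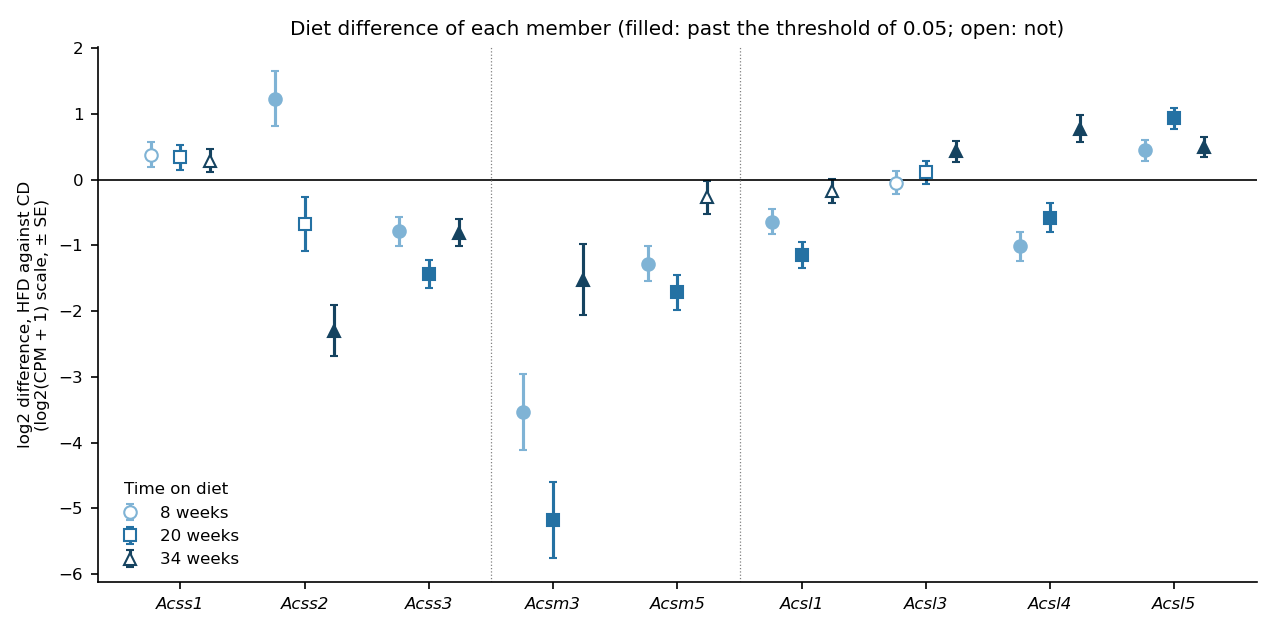
Difference between HFD and CD for each member at 8, 20 and 34 weeks, on the log2(CPM + 1) scale with standard errors from limma, filled where adjusted p was under 0.05. Acss2 and Acsl4 lie on opposite sides of 0 at 8 and 34 weeks, Acsm3 is the lowest at -5.18 at 20 weeks, and Acsl5 is above 0 throughout.

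Counted together, 7 of the 9 genes passed the threshold at 8 weeks, 2 higher and 5 lower on HFD, where 44.9% of all genes tested passed (29.8% higher and 15.1% lower). At 20 weeks 6 members passed, 1 higher and 5 lower, beside 57% of all genes (38.3% higher and 18.7% lower). At 34 weeks 6 passed, 3 higher and 3 lower, beside 43.2% of all genes (27.5% higher and 15.7% lower). Centred on adipocyte markers, the members past the threshold were 2 higher and 3 lower at 8 weeks, 3 and 4 at 20 weeks and 6 and 1 at 34 weeks, and with array weights they were 1 and 3 at 34 weeks. The median difference of the members was -0.64, -0.68 and -0.17 at the 3 times, and that of all genes tested was 0.11, 0.14 and 0.07. Groups without overlap were found for 1 member that was higher and 2 that were lower at 8 weeks, where 15.7% and 7.14% of all genes had no overlap. At 20 weeks the counts were 1 and 5 beside 26.1% and 11.1%, and at 34 weeks no member was without overlap in either direction, beside 1.47% and 0.986%. The rule that picked the members used these values, so nothing is read from the counts. CPM of these libraries leaned towards higher calls on HFD, which made up 66.3%, 67.1% and 63.6% of all calls at the 3 times. With TMM factors the split was 49.9%, 46.4% and 50.4%, and the median of all genes moved to 0.00, -0.05 and -0.01.

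Time on diet was then compared within each diet, against the same 8-week mice in both time comparisons. In CD, no member passed the threshold between 8 and 20 weeks, where 3.58% of all genes did (1.7% higher and 1.88% lower), and none was without overlap, beside 1.92% higher and 1.81% lower. Between 8 and 34 weeks in CD 8 members passed, 3 higher and 5 lower, beside 64.7% of all genes (40.1% higher and 24.6% lower). Acss2 was higher by 2.09 ± 0.39, Acss1 by 0.73 ± 0.18 and Acsl5 by 0.46 ± 0.15 on the log2 scale. Acsm3 was lower at -3.34 ± 0.54, Acsl4 at -1.84 ± 0.21, Acss3 at -1.32 ± 0.20, Acsm5 at -1.18 ± 0.25 and Acsl1 at -0.47 ± 0.18. For Acss1 in the upward and Acsm3, Acsm5, Acss3 and Acsl4 in the downward direction the 2 CD groups did not overlap, beside 14.6% and 10% of all genes. The Acsl1 difference lost the threshold without CD mouse 4 or 5 of 8 weeks (-0.42 and -0.40) or CD mouse 2 or 3 of 34 weeks (-0.38 and -0.42), without a low-level filter or with only the groups compared (-0.47 each), and centred on adipocyte markers (-0.34). The Acsl5 difference was 0.58 and short of the threshold when centred, and 2 of the 8 CD mice of 34 weeks lay below every CD mouse of 8 weeks. Acsl3, at -0.35 ± 0.16, passed with TMM (-0.46) or median-of-ratios scaling (-0.44), in edgeR (-0.51) and in DESeq2 (-0.49), and gained the threshold without CD mouse 2, 4 or 5 of 8 weeks, CD mouse 5 of 34 weeks or HFD mouse 1 of 34 weeks, at -0.35 to -0.45. Age rose together with time on diet, and the 2 cannot be told apart.

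Between 8 and 20 weeks in HFD Acss2 alone passed, at -1.22 ± 0.41, beside 36.5% of all genes (21.2% higher and 15.3% lower), and no member was without overlap, beside 15% and 9.63%. Centred on adipocyte markers the Acss2 difference was -0.81 and fell short. Acsm3 passed in edgeR (-2.44) and DESeq2 (-2.42). Members also gained the threshold without 1 mouse, which were Acsm3 without HFD mouse 3 (-1.72) or 4 (-1.56) of 8 weeks or CD mouse 1 of 20 weeks (-1.31), Acsl5 without HFD mouse 3 of 8 weeks (0.43), Acsl4 without HFD mouse 5 of 8 weeks (0.59) and Acss3 without HFD mouse 4 of 20 weeks (-0.62). Between 8 and 34 weeks 4 members passed, 2 higher and 2 lower, beside 52.5% of all genes (31.7% higher and 20.8% lower). These were Acss2 at -1.44 ± 0.41, Acss3 at -1.34 ± 0.22, Acss1 at 0.64 ± 0.19 and Acsl5 at 0.51 ± 0.16. Acsm3, Acsm5, Acsl1 and Acsl4 were, like Acss3, lower on HFD than in CD at 8 weeks. Unlike that of Acss3, their differences between 8 and 34 weeks, -1.33, -0.17, 0.00 and -0.05, did not pass. For Acss3 the HFD groups of 8 and 34 weeks did not overlap, beside 16.4% of all genes higher and 7.67% lower. The Acsm3 difference passed in edgeR (-2.27) and DESeq2 (-2.26), with a pseudocount of 0.5, TMM or median-of-ratios scaling (-1.38 to -1.47), and without HFD mouse 3, 4 or 6 of 8 weeks, HFD mouse 2 or 4 of 34 weeks, CD mouse 1 or 3 of 20 weeks or CD mouse 6 of 34 weeks (-1.33 to -1.73).

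Whether the diet difference itself changed with time was given by interaction terms. From 8 to 20 weeks no member passed, beside 4.49% of all genes (2.81% upwards and 1.67% downwards). The Acss2 term of -1.91 ± 0.58 lay near the threshold and passed in 9 of 12 settings and without HFD mouse 2 (-2.09) or 5 (-2.04) of 8 weeks, CD mouse 1 of 20 weeks (-2.03), or CD mouse 4, 5 or 6 or HFD mouse 3 or 6 of 34 weeks (-1.91 each). The Acsm3 term of -1.64 passed in edgeR (-3.14) and DESeq2 (-3.12). From 8 to 34 weeks 3 members passed, 2 upwards and 1 downwards, beside 28.8% of all genes (13% upwards and 15.9% downwards). These were Acss2 at -3.53 ± 0.57, Acsl4 at 1.79 ± 0.31 and Acsm5 at 1.01 ± 0.37. The Acsm5 term fell short without HFD mouse 3, 4 or 6 or CD mouse 4 or 5 of 8 weeks, CD mouse 2 or HFD mouse 1, 5 or 6 of 34 weeks (0.81 to 0.99), in edgeR (0.92) and DESeq2 (0.90), and without a low-level filter (1.01). Acsm3, at 2.02 ± 0.79, gained the threshold without 11 of the 38 mice in turn (2.02 to 2.45), and Acsl3, at 0.48 ± 0.24, without HFD mouse 1 of 34 weeks (0.62). From 20 to 34 weeks 4 members passed, all upwards, beside 10.5% of all genes (4.22% upwards and 6.31% downwards). They were Acsm3 at 3.66 ± 0.79, Acsm5 at 1.45 ± 0.37, Acsl4 at 1.35 ± 0.31 and Acsl1 at 0.98 ± 0.27, and the Acsl4 term fell short when centred on adipocyte markers (1.45). Acss2, at -1.62 ± 0.57, passed downwards in edgeR, in DESeq2 and with array weights. It also gained the threshold without CD mouse 2 or HFD mouse 4 of 20 weeks, or CD mouse 1, 5 or 7 or HFD mouse 6 of 34 weeks (-1.72 to -1.91). Acsl5, at -0.44 ± 0.22, passed downwards with array weights.

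Genes outside the 9 that belong to the same enzyme class were taken from a list of 16 genes in the table, of which 6 passed the low-level filter. This list and those that follow were chosen with earlier results of these data known. In the lists after the thioesterases, the genes named are among those with the largest differences. The adjusted p-values of list genes are therefore a description and no independent test. At 8 weeks 1 of the 6 rose and 2 fell on HFD, at 20 weeks 1 rose and 4 fell, and at 34 weeks none rose and 3 fell, with list medians of -0.19, -0.53 and -0.45. Beside this list and the later ones, 29.8%, 38.3% and 27.5% of all genes tested rose at the 3 times. The shares that fell were 15.1%, 18.7% and 15.7%. Aacs, which activates acetoacetate in the cytosol, fell at all 3 times. Its mean went from 348 ± 71.0 CPM in CD to 184 ± 45.7 CPM in HFD at 8 weeks (SD, n = 6), a log2 difference of -0.93 ± 0.24 (limma, adjusted p = 0.00251). At 34 weeks it was 204 ± 94.7 CPM in CD against 81.0 ± 35.1 CPM in HFD, at -1.29 ± 0.22 (limma, adjusted p = 7.64e-05). Slc27a1, the fatty acid transporter FATP1 with synthetase activity, went from 1045 ± 317 to 539 ± 194 CPM at 8 weeks, at -0.96 ± 0.23 (limma, adjusted p = 0.00132). Its differences were -1.07 ± 0.23 at 20 weeks (limma, adjusted p = 0.000193) and -0.46 ± 0.22 at 34 weeks (limma, adjusted p = 0.0822). Slc27a4, the related FATP4, rose at 8 and 20 weeks by 0.23 ± 0.10 and 0.24 ± 0.10 (limma, adjusted p = 0.0472 and 0.0309). Acsf3, a malonyl-CoA synthetase of mitochondria, and Aasdh fell at 20 and 34 weeks, and Acsf2 passed at no time.

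The thioesterases, which split acyl-CoA again, had 8 of 16 genes past the filter, of which 3 rose and 2 fell at 8 weeks, 4 rose and 3 fell at 20 weeks, and none rose and 2 fell at 34 weeks. Acot4, a peroxisomal thioesterase, went from 21.4 ± 3.98 to 5.99 ± 3.42 CPM at 8 weeks (-1.82 ± 0.23, limma, adjusted p = 6.91e-07). At 20 weeks it went from 19.2 ± 5.59 to 3.57 ± 0.838 CPM (-2.10 ± 0.23, limma, adjusted p = 2.05e-08). Acot2, of mitochondria, fell at these times, at -1.12 and -0.90 on the log2 scale, while Acot7, a cytosolic enzyme, rose, at 0.75 and 0.84. At 34 weeks the 2 latter genes stood at -0.03 and 0.21 and did not pass.

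**Figure D4:**
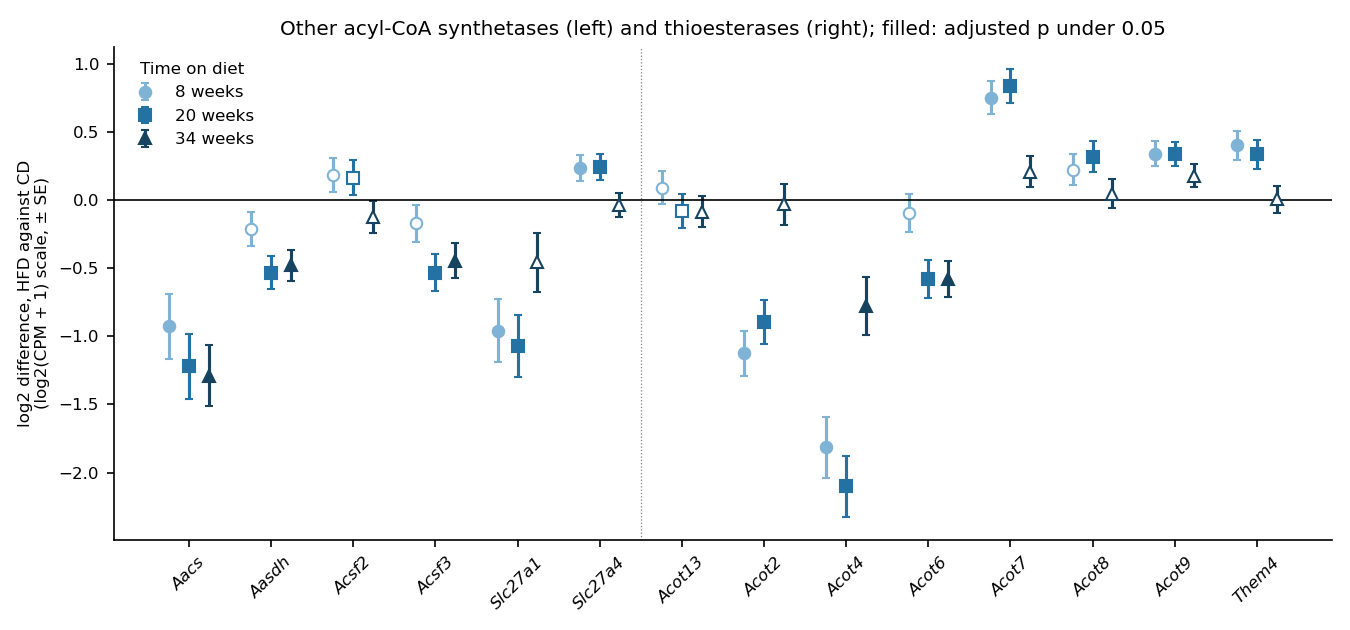
Difference between HFD and CD on the log2(CPM + 1) scale with standard errors for the 6 other synthetases and the 8 thioesterases tested, at 8, 20 and 34 weeks, filled where adjusted p was under 0.05. Acot4 reaches -2.10 at 20 weeks, Aacs is below 0 throughout, and Acot7 is above 0.7 at 8 and 20 weeks.

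The steps around the synthetases were described by further lists. Of 10 genes that carry acetyl-CoA into fatty acids, 1 rose and 2 fell at 8 weeks, 1 rose and 5 fell at 20 weeks, and all 10 fell at 34 weeks, with list medians of 0.33, -0.80 and -1.96. At 34 weeks the differences were -2.51 for Elovl6, a chain elongase (limma, adjusted p = 5.22e-05), -2.28 for Acaca, acetyl-CoA carboxylase (adjusted p = 1.93e-05), and -2.24 for Fasn, fatty acid synthase (adjusted p = 0.000378). Scd2, a desaturase, rose at 8 weeks (3.34) and fell at 34 weeks (-1.62) (limma, adjusted p = 3.5e-05 and 0.0141). In CD between 8 and 34 weeks 6 of the 10 rose and 1 fell, beside 40.1% and 24.6% of all genes tested. Among those that rose were Scd2 at 3.79 and Elovl6 at 2.34. The sign of Acss2 was that of the list median in all 3 diet comparisons.

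Of 10 genes of coenzyme A synthesis and transport, 1 rose and 2 fell on HFD at 8 weeks, and 1 rose and 5 fell at both later times. Slc5a6, the transporter of the coenzyme A precursor pantothenate, went from 117 ± 29.1 to 36.3 ± 16.1 CPM at 8 weeks (limma, adjusted p = 0.000118) and from 109 ± 40.2 to 19.4 ± 6.32 CPM at 20 weeks (limma, adjusted p = 4.85e-07). Of 6 carnitine shuttle genes, 1 rose at each time and 2, 3 and 1 fell. The riser was Cpt1a, the gate of fatty acid entry into mitochondria, at 0.80, 2.11 and 1.11 on the log2 scale (limma, adjusted p = 0.0165, 1.86e-07 and 0.000891). Slc22a5, the carnitine importer, stood at -1.43, -1.24 and -0.38 and passed at the earlier 2 times.

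Propionyl-CoA, the product expected of Acss3, is broken down by a list of 8 genes, of which 1 rose and 2 fell at 8 weeks, 5 fell at 20 weeks and 4 at 34 weeks. Suclg2, a subunit of succinyl-CoA ligase, stood at -0.83, -1.14 and -0.53, and Pccb, of propionyl-CoA carboxylase, at -0.50, -0.79 and -0.42, each past the threshold at all 3 times. Of 8 genes of the pathways from acyl-CoA to glycerolipids, 2 rose and 3 fell at 8 weeks, 5 fell at 20 weeks and 7 at 34 weeks. Gpam, mitochondrial glycerol-3-phosphate acyltransferase, went from 444 ± 66.6 to 203 ± 40.2 CPM at 8 weeks and from 416 ± 99.9 to 97.5 ± 15.1 CPM at 20 weeks (limma, adjusted p = 0.000558 and 8.07e-08). The CD and HFD mice are the same in all of these comparisons and in those of the members.

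For each member the 3 genes closest to it over the 38 mice were found by Pearson correlation of deviations from the group means on the log2(CPM + 1) scale, out of 10049 genes. Each is the highest of many, and all points of a mouse share 1 library, so no p-value is given. Acss2 was closest to Me1, malic enzyme (r = 0.96), Fasn (r = 0.93) and Elovl6 (r = 0.91). Spearman's rho was 0.92, 0.90 and 0.91 for them, and r without the 2 mice farthest from the median of Acss2 was 0.94, 0.90 and 0.85. In the CD mice of 34 weeks the 3 with the most Acss2, mice 4, 6 and 8, also held the most Fasn, at 18022, 16010 and 13801 CPM, and the next was at 5555 CPM. Mouse 5, with the least Acss2, held the least Fasn, at 975 CPM.

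**Figure D5:**
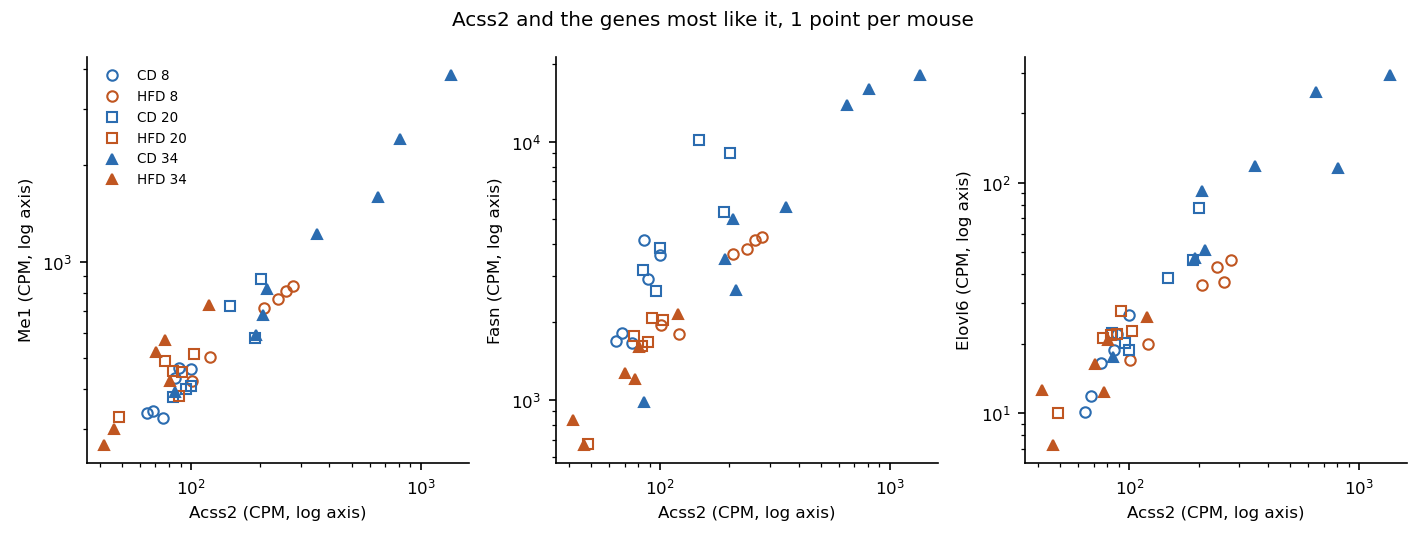
Acss2 against Me1, Fasn and Elovl6 in CPM on log axes, 1 point per mouse, with CD in blue, HFD in orange and the shape giving the weeks on diet. CD mice at 34 weeks run from the lower left, with Acss2 at 85.0, to the upper right, with Acss2 at 1357.

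Acsm5 was closest to Aldh6a1, of valine and propionate catabolism (r = 0.89), Mettl7a1 (r = 0.89) and Acad10 (r = 0.88). Acsm3 was closest to Gde1 (r = 0.80), Ebf2 (r = 0.80) and Dennd2d (r = 0.78), and Acss3 to Sox6 (r = 0.86), Sik2 (r = 0.86) and Nedd4 (r = 0.85). Acsl5 was closest to H2-DMb1, a chaperone of MHC class II molecules in antigen-presenting cells (r = 0.91), Panx1 (r = 0.91) and Ephx1 (r = 0.90). Acss1 was closest to Cdk19 (r = 0.89), Acsl4 to Fbxw11 (r = 0.84), Acsl1 to Slc36a2 (r = 0.76) and Acsl3 to Map2k3 (r = 0.76). Among the members themselves the highest value was between Acss3 and Acsm5 (r = 0.72), followed by Acsl3 and Acsl4 (r = 0.62) and Acsm3 and Acsm5 (r = 0.55), and the lowest between Acsm3 and Acsl5 (r = -0.69).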

How the data were processed

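The authors aligned the reads to mm10 (GRCm38) with STAR and counted them with featureCounts (Subread 1.5.1) over the exons of each gene. They deposited 1 table of CPM with 1 column per mouse, each column summing to 1000000, so that no TMM factor is visible in the deposited CPM although edgeR is named. All values (100.0%) are whole reads within 0.1 reads. The 9 members, the gene lists and the marker lists were chosen with earlier results of these data known. Differences were fitted with limma 3.58.1 (R 4.3.3) with a trend on log2(CPM + 1) over all 6 groups together (32 residual degrees of freedom), in genes with a mean above 2.0 (10343 of 29132, 35.5%), two-sided, with Benjamini-Hochberg adjustment over all genes tested and a threshold of 0.05. A pseudocount understates changes of low genes. Named were the 9 members, the other synthetases and thioesterases tested, up to 4 genes per list with the largest differences, and the 3 genes most like each member. Alternatives included edgeR 4.0.16 and DESeq2 1.42.0 on whole reads. The fit was also run on simulated counts, with few genes changed in a single group and the same spread setting for every gene. The mice differ from that setting, so the run does not show how the fit performs on them. P-values set a difference against the spread between mice, estimated over the 6 groups together. Exon lengths came from GENCODE vM21, which is not the annotation the authors counted with. Libraries of the stromal fraction were not analysed here.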

Additional observations from a re-analysis of the deposited data

Results flagged for a closer look

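In 3 of 54 sets of mice (9 members in 6 groups) the lowest mouse stood apart from the rest by Dixon's test, where chance gives about 1 in 20. For Acsl1 in CD at 8 weeks, mouse 2 held 2059 CPM and the next mouse 3118 CPM, a gap of 0.626 of the group's range. For Acsl1 in CD at 20 weeks, mouse 1 held 2263 CPM and the next 3804 CPM, a gap of 0.725. For Acsl3 in HFD at 20 weeks, mouse 4 held 18.6 CPM and the next 22.0 CPM, a gap of 0.652.

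The diet difference itself differed between times for 7 of 27 interaction terms of the members, by limma's test of each term, beside 4.49%, 28.8% and 10.5% of all genes from 8 to 20, 8 to 34 and 20 to 34 weeks. From 8 to 34 weeks they were Acss2 (-3.53), Acsl4 (1.79) and Acsm5 (1.01), and from 20 to 34 weeks Acsm3 (3.66), Acsm5 (1.45), Acsl4 (1.35) and Acsl1 (0.98), on the log2 scale. The members were chosen with these values known, and the causes were not tested.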

How the results depend on the processing

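Each of 90 member differences was recomputed under 12 settings and without each of 38 mice in turn. Of 4500 values 4454 stayed within 1 SD between mice, 45 moved further and 1, which had been past the threshold, changed sign, Acsl4 at 20 weeks when centred on adipocyte markers (0.0246). Many of the 4500 could not move. A difference is unchanged by leaving out a mouse outside the groups compared, by the filter, or by fitting only the groups compared. The SD between mice was also wide for some genes, 1.00 for Acsm3 against 0.28 for Acsl5. Values not past the threshold changed sign 93 times, and 2 of these then passed it, Acsl1 (0.52) and Acsm5 (0.43) at 34 weeks when centred. That centring raised the median of all genes to 0.39, 0.74 and 0.77 at the 3 times. It takes away the plain mean of the 11 markers, which did not move together. At 34 weeks Cfd (-2.70) and Retn (-2.11) fell furthest on HFD, while Lep (0.56) and Cidea (0.75) stood higher. The centring is therefore no plain correction for adipocyte content, and it was not repeated with single markers left out. The diet counts of members past the threshold stayed within 1.5 times of 7, 6 and 6 in all settings, but not their split or their genes. Centred on adipocyte markers, 6 higher and 1 lower passed at 34 weeks in place of 3 and 3, with Acss3 and Acsm3 lost and Acss1, Acsm5 and Acsl1 gained. Over all genes, the count at 34 weeks was 4468, but 8854 centred on adipocyte markers and 2457 with only the groups compared, and at 8 weeks 4648, but 7032 with array weights. For the change of the diet difference from 8 to 20 weeks no member passed, but 1 did with a pseudocount of 4, a filter above 1.0, TMM, median-of-ratios or the replicate block, 2 with edgeR, DESeq2 or only the groups compared, 4 with array weights and 0 to 1 without a mouse. From 8 to 34 weeks it was 3, but 5 centred on adipocyte markers or with array weights. In HFD from 8 to 20 weeks 1 member passed, but 2 centred on adipocyte markers, in edgeR or DESeq2, 4 with only the groups compared, 6 with array weights and 1 to 3 without a mouse. In CD it was 0, but 1 with array weights. Centring also brought Acsl3 past at 20 weeks (0.71). The causes were not tested. Mouse numbers were shared between groups, but same-numbered mice deviated together in no regular way (r from -0.51 to 0.53), so the replicate block is an alternative only, and it ended 1 diet call of the members, Acsl3 at 34 weeks (0.41). Low reads limit Acsm3 on HFD, with as few as 5.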
